A study of Homo sapiens with 12 samples.

Results

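The genes described here are those of the human mitochondrial genome, taken as every row of the count table on chromosome M, a rule that uses no measured value. There are 37 of them among 64253 genes in the table: 2 ribosomal RNA (rRNA) genes, 13 protein-coding (mRNA) genes and 22 transfer RNA (tRNA) genes. All 37 passed the filter on low counts and were tested. The RNA came from JEKO-1, an established line from a human mantle cell lymphoma, a B cell cancer. The cells had 48 h of one of 4 treatments, with 3 libraries for each: KPT-330 together with choline salicylate (KPT-330+CS), choline salicylate alone (CS, a salicylate salt), KPT-330 alone (selinexor, which blocks XPO1, a receptor that carries cargo out of the nucleus) and DMSO, the solvent control. The labels and the design text give neither the doses nor whether the 3 libraries of a group are separate cultures. If they are not, the spread that the p-values rest on is technical. A single cell line carries every comparison.

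Human mitochondrial DNA is a small circle that is transcribed on both strands into long precursors covering many genes. The mitochondrial RNA polymerase POLRMT starts transcription with TFAM and TFB2M, and nucleases release mRNAs and rRNAs by cutting out the tRNAs that lie between them. The transcript of the heavy strand carries both rRNAs, most tRNAs and all mRNAs except MT-ND6, and begins at the tRNA gene MT-TF. That of the light strand carries MT-ND6 and the remaining tRNAs. The mRNAs encode core subunits of the respiratory chain and of ATP synthase, and the rRNAs and tRNAs serve the mitochondrial ribosome that translates them. Most mature mitochondrial mRNAs and the rRNAs carry short A tails, whereas mature tRNAs end in CCA.

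The libraries were selected for poly(A) RNA and made with an unstranded kit, which bears on what a count on each class means. How fully the selection captured each transcript, MT-ND6 among them, was not measured. Of the 37 genes, 28 lie on the plus strand of hg38 chromosome M, which matches the heavy-strand transcript, and 9 lie on the minus strand: MT-ND6 and 8 tRNA genes (MT-TQ, MT-TA, MT-TN, MT-TC, MT-TY, MT-TS1, MT-TE and MT-TP). Reads of a gene on either strand cannot be told apart from antisense reads of the opposite transcript. The tRNA genes are 59 to 75 bases long, and a count on one of them does not tell a mature tRNA, a precursor and the end of a neighbouring transcript apart. Overlapping pairs (MT-ATP8 with MT-ATP6, MT-ATP6 with MT-CO3, MT-ND4L with MT-ND4, MT-TI with MT-TQ, MT-TC with MT-TY) share bases, so their counts are not fully separate.

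Total counts ran from 35325563 to 59490178 per library. All 7 markers of B cells and mantle cell lymphoma were expressed, with MS4A1 at a mean of 1782, 1319, 1411 and 1140 CPM (counts scaled to library size) in KPT-330+CS, CS, KPT-330 and DMSO cells, while no marker of T cells, myeloid cells, epithelium or fibroblasts exceeded 2.85 CPM in any library. Libraries also differed in the trend of their counts with gene GC content. As log2 units per 10 percentage points of GC this slope was 0.128, 0.0259 and -0.15 in KPT-330+CS libraries, -0.229, -0.102 and 0.0592 in CS libraries, 0.203, 0.195 and 0.228 in KPT-330 libraries, and 0.0874, -0.13 and -0.314 in DMSO libraries. Within the KPT-330+CS, CS and DMSO groups, the mitochondrial share of counts was higher in libraries with a lower slope. The KPT-330 libraries had the highest slopes of all. A fit of single genes corrected for this trend gave more calls in most comparisons, and its counts and changed calls are given beside the results. Shares and ratios were not corrected. The part of this trend in them was not tested beyond a run without the lowest slopes of KPT-330+CS, CS and DMSO.

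Much of what follows turns on 8 tRNA genes, whose hg38 sequences are shown so that the positions and anticodons can be compared. All 8 lie on the plus strand, at chrM:577-647 (MT-TF), chrM:7518-7585 (MT-TD), chrM:12266-12336 (MT-TL2), chrM:10405-10469 (MT-TR), chrM:4263-4331 (MT-TI), chrM:8295-8364 (MT-TK), chrM:1602-1670 (MT-TV) and chrM:5512-5579 (MT-TW). The first 3 are genes whose counts were lowest with CS relative to DMSO, the next 3 rose with either drug, and the last 2 were highest with both drugs together. Each is written 5′ to 3′ with the anticodon in capitals, as found by its loop of 7 bases closed by at least 4 of 5 stem pairs.
MT-TF: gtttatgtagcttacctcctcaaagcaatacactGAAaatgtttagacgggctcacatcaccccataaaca
MT-TD: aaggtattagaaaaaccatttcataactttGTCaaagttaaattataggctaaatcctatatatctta
MT-TL2: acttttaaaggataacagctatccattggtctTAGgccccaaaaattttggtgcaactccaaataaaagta
MT-TR: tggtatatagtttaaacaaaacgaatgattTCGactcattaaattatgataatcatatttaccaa
MT-TI: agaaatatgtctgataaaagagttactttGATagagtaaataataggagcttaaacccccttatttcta
MT-TK: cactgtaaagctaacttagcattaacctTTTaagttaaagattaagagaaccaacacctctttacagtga
MT-TV: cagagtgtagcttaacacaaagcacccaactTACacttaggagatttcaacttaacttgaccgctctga
MT-TW: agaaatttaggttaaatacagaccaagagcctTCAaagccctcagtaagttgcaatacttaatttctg
These carry phenylalanine (MT-TF), aspartate (MT-TD), leucine (MT-TL2), arginine (MT-TR), isoleucine (MT-TI), lysine (MT-TK), valine (MT-TV) and tryptophan (MT-TW). MT-TF and MT-TV flank the gene of the small rRNA MT-RNR1, and MT-TV lies between both rRNA genes. With CS against DMSO the 3 tRNA genes that rose had 23.1% to 32.9% GC, and 8 of the 9 that fell had more, 35.2% to 45.8%, the exception being MT-TD at 23.5%. The part of GC content in these directions was not tested beyond the GC-corrected fit, in which all 12 kept their call.

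Per length, the classes differed widely in every group. In DMSO cells the mRNA genes ran from 1002 CPM per kb for MT-ND6 to 15972 CPM per kb for MT-ATP8, with a median of 5545. The large rRNA MT-RNR2 stood at 7430 CPM per kb and the small rRNA MT-RNR1 at 834. The tRNA genes ran from 6.32 CPM per kb for MT-TL2 to 4842 for MT-TM, with a median of 57.9. MT-TM, the methionine tRNA, adjoins the start of MT-ND2 and was the highest tRNA gene in all 4 groups.

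Mitochondrial genes took the largest share of counts in cells given both drugs. The share was 9.31%, 9.52% and 10.0% in KPT-330+CS libraries, 8.27%, 7.69% and 7.42% in CS libraries, 7.27%, 7.27% and 7.08% in KPT-330 libraries, and 6.45%, 6.98% and 7.40% in DMSO libraries. The KPT-330+CS libraries lay above all others, while the KPT-330 and DMSO ranges overlapped. Averaged over cells with and without KPT-330, CS raised the share by 1.64 percentage points (exact stratified permutation test over libraries, two-sided, p = 0.005, the smallest that 400 arrangements allow; adjusted p = 0.0114 over 16 tests). KPT-330 raised it by 1.05 points (exact permutation p = 0.03, adjusted p = 0.048), a call lost without any one of DMSO 1, DMSO 2, KPT-330 1, KPT-330 2 or KPT-330+CS 3, when the difference was 0.923 to 1.06 and the adjusted p 0.056 to 0.08. By stratum, the difference with KPT-330 was 1.83 points beside CS and 0.265 without it. That with CS was 2.42 points beside KPT-330 and 0.854 without it. In bulk poly(A) RNA, more mitochondria per cell, more RNA in each, a change in its capture by poly(A) selection and less RNA from the nucleus cannot be told apart.

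The classes contributed differently to that share. The rRNA share was 2.61 ± 0.121% in KPT-330+CS cells, 1.18 ± 0.0637% in CS cells, 1.44 ± 0.0279% in KPT-330 cells and 1.15 ± 0.0976% in DMSO cells (SD, n = 3 each). KPT-330 raised it by 0.857 points over both CS strata (exact permutation p = 0.005, adjusted p = 0.0114), whereas CS gave 0.599 points with an adjusted p of 0.0582 (exact permutation), which passed without DMSO 3 (0.624, adjusted p = 0.0291) or CS 3 (0.615, adjusted p = 0.04). By stratum, the rRNA share differed with KPT-330 by 1.43 points beside CS and 0.288 without it. With CS it differed by 1.17 points beside KPT-330 and 0.0294 without it. The mRNA share was 6.95 ± 0.250% in KPT-330+CS cells, 6.56 ± 0.370% in CS cells, 5.71 ± 0.0823% in KPT-330 cells and 5.74 ± 0.376% in DMSO cells (SD, n = 3 each). Here CS raised the share, by 1.03 points (exact permutation p = 0.005, adjusted p = 0.0114), while the difference with KPT-330 was 0.181 points and did not pass (exact permutation p = 0.335, adjusted p = 0.383). Summed tRNA counts were 0.0724%, 0.0572%, 0.0555% and 0.0523% of counts in the same order of groups. Averaged over both strata, each drug raised them (adjusted exact permutation p = 0.02 for KPT-330 and 0.0267 for CS). The call for CS was lost without DMSO 1 or DMSO 2, at 0.0533. The difference with KPT-330 was 0.0151 points beside CS and 0.00322 without it. That with CS was 0.0169 points beside KPT-330 and 0.00496 without it. Libraries given either drug alone overlapped those of DMSO.

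**Figure D1:**
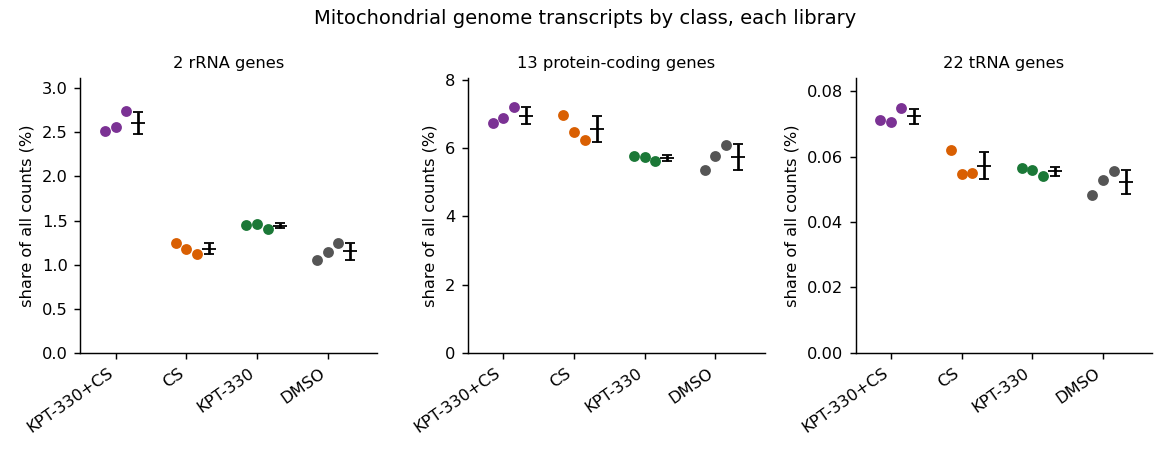
Share of all counts (%, vertical axis) on the 2 rRNA, 13 protein-coding and 22 tRNA genes of the mitochondrial genome, by group. Points are libraries, the bar beside them is the mean ± SD (n = 3); the rRNA share of the KPT-330+CS libraries lies near 2.61%, above every other library, while the mRNA share is high in both groups given CS.

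Ratios within the mitochondrial genome do not depend on how nuclear RNA was scaled, and in these the combination stood furthest from DMSO. They still depend on how poly(A) selection captured each transcript. The rRNA to mRNA ratio was 0.374, 0.371 and 0.380 in KPT-330+CS libraries, 0.179, 0.183 and 0.179 in CS libraries, 0.250, 0.254 and 0.251 in KPT-330 libraries, and 0.197, 0.199 and 0.205 in DMSO libraries. No 2 groups overlapped. KPT-330 raised the ratio by 0.195 in cells that also had CS and by 0.0514 in cells that did not (exact permutation over both strata p = 0.005, adjusted p = 0.0114). The difference with CS was 0.124 beside KPT-330 and -0.0204 without it, and because these have opposite signs their mean of 0.0515 did not pass (exact permutation p = 0.1, adjusted p = 0.123). Counts of tRNA per 1000 mRNA counts were 10.4 ± 0.177 in KPT-330+CS, 8.72 ± 0.221 in CS, 9.72 ± 0.0926 in KPT-330 and 9.11 ± 0.057 in DMSO cells (SD, n = 3 each). KPT-330 raised this ratio by 1.15 (exact permutation p = 0.005, adjusted p = 0.0114). With CS it differed by 0.708 beside KPT-330 and -0.385 without it, and their mean of 0.16 did not pass (exact permutation adjusted p = 0.45).

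The ratio of the large to the small rRNA also differed, although both genes lie side by side on one transcript. MT-RNR2 had 22.3 ± 0.444 counts per MT-RNR1 count in KPT-330+CS cells, 15.9 ± 0.0644 in CS cells, 19.02 ± 0.256 in KPT-330 cells and 14.5 ± 0.264 in DMSO cells (SD, n = 3 each). Both drugs raised this ratio, KPT-330 by 5.44 and CS by 2.32 (exact permutation p = 0.005 and adjusted p = 0.0114 for each). MT-ND6, a subunit of complex I and the only mRNA of the light strand, had 6.48 ± 0.259 counts per 1000 counts of the other mRNAs in KPT-330+CS cells, 9.29 ± 0.289 in CS cells, 10.1 ± 0.155 in KPT-330 cells and 8.59 ± 0.175 in DMSO cells (SD, n = 3 each). The means with each drug alone were above that of DMSO and the mean with both was below it. With KPT-330 the difference was -2.80 beside CS and 1.48 without it, so the mean over strata, -0.664, did not pass (exact permutation adjusted p = 0.432).

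**Figure D2:**
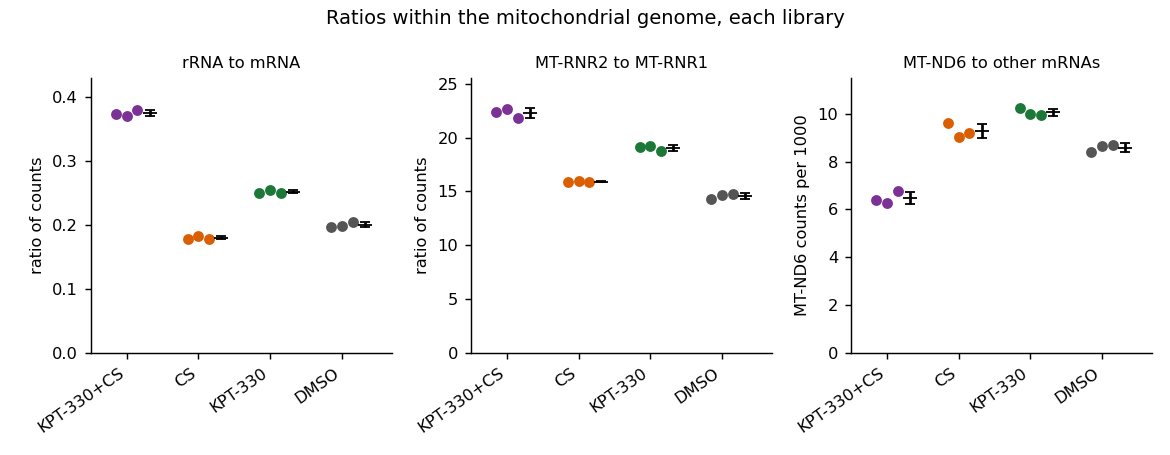
Ratios of counts between mitochondrial genes (vertical axes, from 0) by group: rRNA to mRNA, MT-RNR2 to MT-RNR1, and MT-ND6 counts per 1000 counts of the 12 other mRNAs. Points are libraries and bars the mean ± SD (n = 3); KPT-330+CS is highest in the first pair (0.375 and 22.3) and lowest for MT-ND6 (6.48).

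Single genes were compared with edgeR's quasi-likelihood F-test on all 12 libraries, with CPM and log2 fold changes scaled by TMM, a normalization that assumes most genes do not change. A gene was called where its p, adjusted by Benjamini-Hochberg over the 19460 tested genes of a comparison, was at most 0.05. Fold changes are given as log2 ± SE, and adjusted p-values are from this test unless another is named.

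Most of the genes called with CS alone, 12 of 14, were tRNA genes. Of the 37 genes, 5 were higher and 9 lower in CS cells than in DMSO cells, beside 3.76% and 5.13% of all tested genes called higher and lower. These were 3 tRNA and 2 mRNA genes among the higher and 9 tRNA genes among the lower, and neither rRNA passed. The median log2 fold change was 0.05 over the 37 genes and -0.01 over all tested genes. Scaled by library size alone, which shifts the median of all genes to 0.05, the counts were 10 higher and 9 lower. Of all 19460 tested genes, 1365 and 714 were then called higher and lower. The GC-corrected fit gave 14 higher and 11 lower, with no call lost, beside 1920 and 2643 of all 19460 tested genes. The 11 genes it added were MT-ND3 (0.28), MT-ND6 (0.26), MT-CYB (0.20), MT-ATP8 (0.17), MT-ATP6 (0.15), MT-CO1 (0.12), MT-RNR1 (-0.14) and the tRNA genes MT-TY (0.45), MT-TC (0.37), MT-TM (0.20) and MT-TV (-0.27), so that the share of tRNA genes among the calls depends on this choice.

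MT-TF, the phenylalanine tRNA at the start of the heavy-strand transcript, fell furthest. It had 3.04, 2.15 and 2.52 CPM in CS cells, against 15.2, 15.5 and 17.7 CPM in DMSO cells, a log2 fold change of -2.65 ± 0.14 (adjusted p = 9.34e-07). The highest CS library lay far below the lowest DMSO library. MT-TD, the aspartate tRNA, had 3.20, 2.27 and 2.11 CPM in CS cells, against 10.4, 11.9 and 12.4 CPM in DMSO cells (-2.20 ± 0.14, adjusted p = 1.64e-06). MT-RNR1, which adjoins MT-TF on the same transcript, did not fall with it: it had 763, 716 and 676 CPM in CS cells, against 724, 792 and 871 CPM in DMSO cells, and the groups overlapped (-0.15 ± 0.08, adjusted p = 0.271). MT-CO2, the cytochrome oxidase subunit gene that follows MT-TD, rose to 11442, 10645 and 10184 CPM in CS cells, against 7502, 8268 and 8970 CPM in DMSO cells (0.38 ± 0.07, adjusted p = 0.00643).

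The rest of the lower tRNA genes included the cluster of histidine, serine and leucine tRNAs between MT-ND4 and MT-ND5, all with few reads. MT-TL2 had 2, 10 and 5 reads in CS libraries, against 24, 20 and 15 in DMSO libraries (-1.97 ± 0.41, adjusted p = 0.00989). MT-TS2 had 13, 19 and 13 reads in CS libraries, against 52, 36 and 47 in DMSO libraries (-1.76 ± 0.28, adjusted p = 0.00184), and MT-TH had a log2 fold change of -0.97 ± 0.25 (adjusted p = 0.0311). None of these overlapped between the groups. MT-TT, the threonine tRNA after MT-CYB, fell by 1.08, and MT-TW, MT-TE and MT-TL1 fell by 0.74, 0.60 and 0.58 on the log2 scale. The calls of MT-TL2 and MT-TW were lost without CS 3 (adjusted p = 0.0524 and 0.0504), and that of MT-TH without DMSO 2, DMSO 3, CS 2 or CS 3 (up to 0.133).

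The tRNA genes that rose with CS were those of arginine, isoleucine and lysine. MT-TR had 7.36, 6.08 and 6.27 CPM in CS cells, against 1.44, 1.91 and 2.23 CPM in DMSO cells (1.83 ± 0.15, adjusted p = 1.47e-05). MT-TI had 83.9, 70.3 and 72.5 CPM in CS cells, against 31.2, 34.1 and 39.1 CPM in DMSO cells (1.12 ± 0.09, adjusted p = 1.21e-05). MT-TK had 11.5, 8.52 and 8.40 CPM in CS cells, against 4.76, 5.16 and 6.57 CPM in DMSO cells (0.78 ± 0.15, adjusted p = 0.00712). In all 3 the groups were apart. Each of these genes directly follows an mRNA gene or its short spacer on the same strand (MT-ND3, MT-ND1 and MT-CO2), but so do MT-TW, MT-TH and MT-TT, which fell.

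Among the mRNAs, MT-CO2 and MT-ND2 passed, and no mRNA fell. MT-ND2, a complex I subunit, had 3376, 3064 and 2911 CPM in CS cells, against 2238, 2549 and 2772 CPM in DMSO cells (0.31 ± 0.08, adjusted p = 0.0308). This call was lost without DMSO 2, CS 1, CS 2, any KPT-330 library or KPT-330+CS 2, at an adjusted p of up to 0.107. The other 11 mRNAs lay between -0.04 (MT-CO3) and 0.25 (MT-ND3). MT-RNR2 had a log2 fold change of -0.02 ± 0.08 (adjusted p = 0.92). Fitted on the CS and DMSO libraries alone, MT-CO2, MT-ND2, MT-TK, MT-TE, MT-TH, MT-TL2 and MT-TW were no longer called (adjusted p = 0.0625 to 0.127). This left 2 genes higher and 5 lower, beside 159 and 90 of all 17722 genes tested in that fit.

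**Figure D3:**
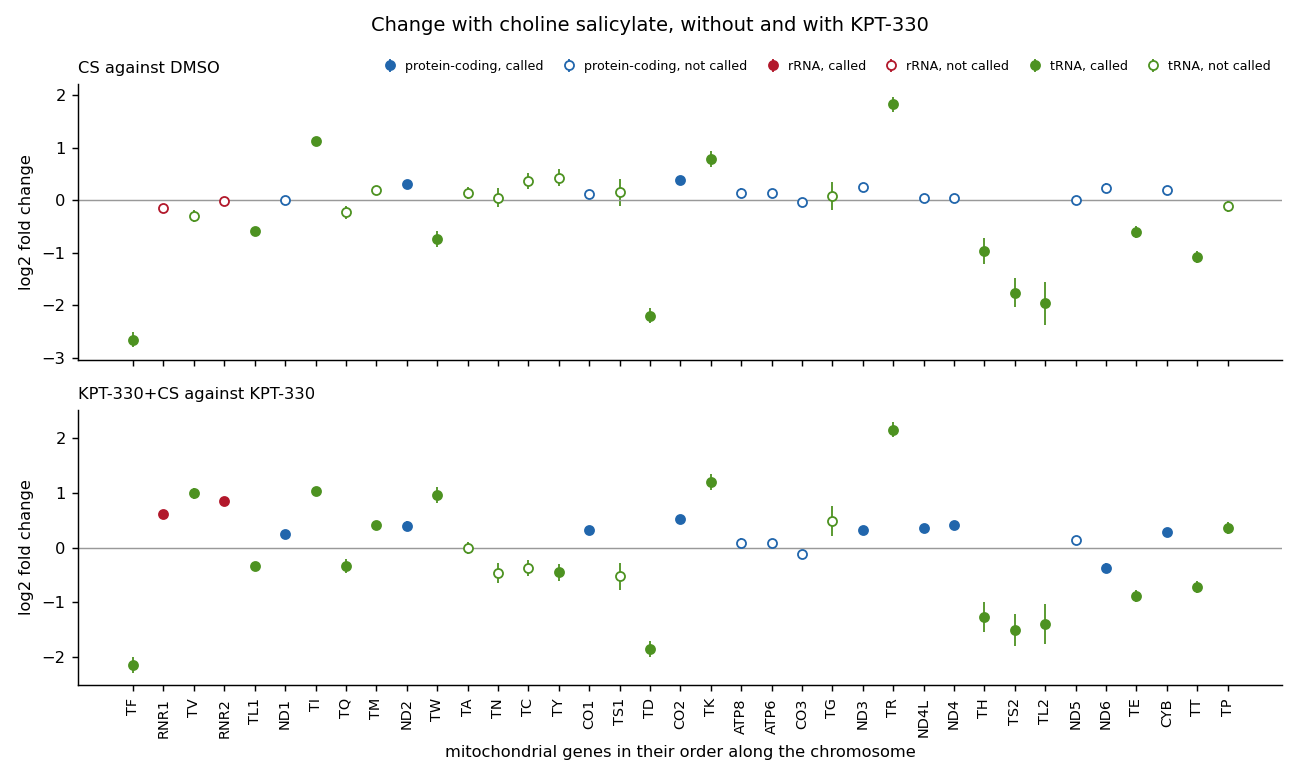
Log2 fold change (vertical axis) of each mitochondrial gene with CS, in gene order: CS against DMSO above, KPT-330+CS against KPT-330 below. Points are edgeR estimates with SE bars, filled where the adjusted p is 0.05 or less; tRNA genes reach from -2.65 (MT-TF) to 1.83 (MT-TR) in the upper panel while the mRNAs stay between -0.04 and 0.38.

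KPT-330 alone lowered several complex I and ATP synthase mRNAs and the small rRNA by less than 0.5 on the log2 scale, and raised tRNA genes of both strands. Of the 37 genes, 8 were higher and 11 lower in KPT-330 cells than in DMSO cells, beside 24.7% and 23.8% of all tested genes, so the members' counts are close to the background. All 8 higher genes were tRNAs, and the 11 lower ones were MT-RNR1, 6 mRNAs and 4 tRNAs. The median log2 fold change was -0.08 over the 37 genes and 0.04 over all tested genes. Under scaling by library size alone, where the median of all genes is 0.20, the split turned to 14 higher and 5 lower. Of all 19460 tested genes, 6651 and 2905 were then called higher and lower. GC correction gave 13 higher and 11 lower, beside 5039 and 5482 of all 19460 tested genes. It added MT-RNR2 (0.31), MT-ND6 (0.18), MT-TN (0.58), MT-TE (0.39) and MT-TL1 (0.24) among the higher and MT-ND1 (-0.11) among the lower.

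The lower mRNAs were led by the neighbours MT-ND4L and MT-ND4 and by MT-ND5, all complex I subunits from the later part of the heavy-strand transcript. MT-ND4L had 2394, 2448 and 2343 CPM in KPT-330 cells, against 2899, 3320 and 3609 CPM in DMSO cells (-0.45 ± 0.08, adjusted p = 0.000413). MT-ND4 had 5725, 5672 and 5564 CPM in KPT-330 cells, against 6921, 7703 and 8300 CPM in DMSO cells (-0.43 ± 0.07, adjusted p = 0.000273). MT-ND5 had 3258, 3292 and 3206 CPM in KPT-330 cells, against 3804, 4278 and 4612 CPM in DMSO cells (-0.38 ± 0.07, adjusted p = 0.000823). In these 3 the groups did not overlap. MT-ND2, MT-ATP8 and MT-ATP6 were each at -0.24, and MT-RNR1 at -0.20 ± 0.08 (adjusted p = 0.0388). Those 4 calls were lost under library size alone (-0.07, -0.08, -0.07 and -0.04 for MT-ND2, MT-ATP8, MT-ATP6 and MT-RNR1, adjusted p of at least 0.378) and without DMSO 2, DMSO 3 or any one KPT-330 library (for MT-ATP8 also KPT-330+CS 2, for MT-RNR1 also CS 2 and KPT-330+CS 2) at adjusted p-values of up to 0.183. Under GC correction they were called at -0.11, -0.08, -0.13 and -0.12. MT-RNR2 was at 0.18 ± 0.08 (adjusted p = 0.076) and MT-CO1 at -0.02 ± 0.07 (adjusted p = 0.868), which turns to 0.15 under library size alone or relative to mitochondrial mRNA.

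MT-TR and MT-TI, which rose with CS, also rose with KPT-330. MT-TR had 5.37, 4.57 and 4.72 CPM in KPT-330 cells, against 1.44, 1.91 and 2.23 CPM in DMSO cells (1.40 ± 0.15, adjusted p = 5.81e-06). MT-TI had 66.2, 60.9 and 61.1 CPM in KPT-330 cells, against 31.2, 34.1 and 39.1 CPM in DMSO cells (0.85 ± 0.09, adjusted p = 4.01e-06). MT-TV, the valine tRNA between the rRNA genes, rose by 0.54 ± 0.11 and MT-TK by 0.48 ± 0.15. KPT-330 also raised 4 of the 8 minus-strand tRNA genes: MT-TS1 (serine) by 0.70, MT-TY (tyrosine) by 0.59, MT-TC (cysteine) by 0.55 and MT-TA (alanine) by 0.47. For these, as for plus-strand genes, sense and antisense reads cannot be told apart. MT-TY had 2.76, 2.36 and 2.38 CPM in KPT-330 cells, against 1.38, 1.83 and 1.79 CPM in DMSO cells. MT-TS1 had 1.47, 1.19 and 1.63 CPM in KPT-330 cells, against 0.862, 0.563 and 1.21 CPM in DMSO cells, and its groups overlapped. Its call was lost without DMSO 1, DMSO 2, KPT-330 1 or KPT-330 3 (adjusted p up to 0.147), and that of MT-TK without DMSO 1, DMSO 2 or KPT-330 1 (up to 0.0731).

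The tRNA genes that fell furthest with CS were closer to DMSO with KPT-330. MT-TF had 13.2, 13.03 and 11.6 CPM in KPT-330 cells, below the DMSO libraries, at a log2 fold change of -0.36 ± 0.13 (adjusted p = 0.0375). That call was lost under library size alone, under GC correction (adjusted p = 0.0603) and without DMSO 2, DMSO 3 or any one KPT-330 library (up to 0.139). MT-TD had 7.96, 8.12 and 7.66 CPM in KPT-330 cells (-0.55 ± 0.13, adjusted p = 0.00356). MT-TT and MT-TM, the methionine tRNA, fell by 0.53 and 0.31 on the log2 scale, the call of MT-TM being lost under library size alone (-0.15, adjusted p = 0.0588), and MT-TL2 was at 0.09 ± 0.33 (adjusted p = 0.835). Set directly against each other, CS cells had less MT-TF, MT-TL2, MT-TD and MT-TS2 than KPT-330 cells (-2.30 ± 0.14, -2.06 ± 0.40, -1.65 ± 0.14 and -1.31 ± 0.28, adjusted p at most 0.00215). In that comparison 12 of the 37 genes were higher and 10 lower in CS cells, beside 20.2% and 22.6% of all tested genes. The higher ones were 9 mRNAs and 3 tRNAs, led by MT-ND2 (0.54 ± 0.08), MT-ND4L (0.50 ± 0.08), the tRNA gene MT-TM (0.50 ± 0.07) and MT-ND4 (0.48 ± 0.07). The calls of MT-TI (0.27 ± 0.08) and MT-TR (0.42 ± 0.13) were lost without CS 1, KPT-330 2 or KPT-330 3 (adjusted p up to 0.102 and 0.0868) and under GC correction (0.129 and 0.0893), which called MT-ND1 higher (0.11) and MT-TH, MT-TN and MT-RNR2 lower (-0.78, -0.51 and -0.30), and MT-TI turned to -0.03 relative to mitochondrial mRNA. That of MT-TA (-0.33 ± 0.11) was lost without CS 2, CS 3, KPT-330 1 or KPT-330 2 (up to 0.0784).

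**Figure D4:**
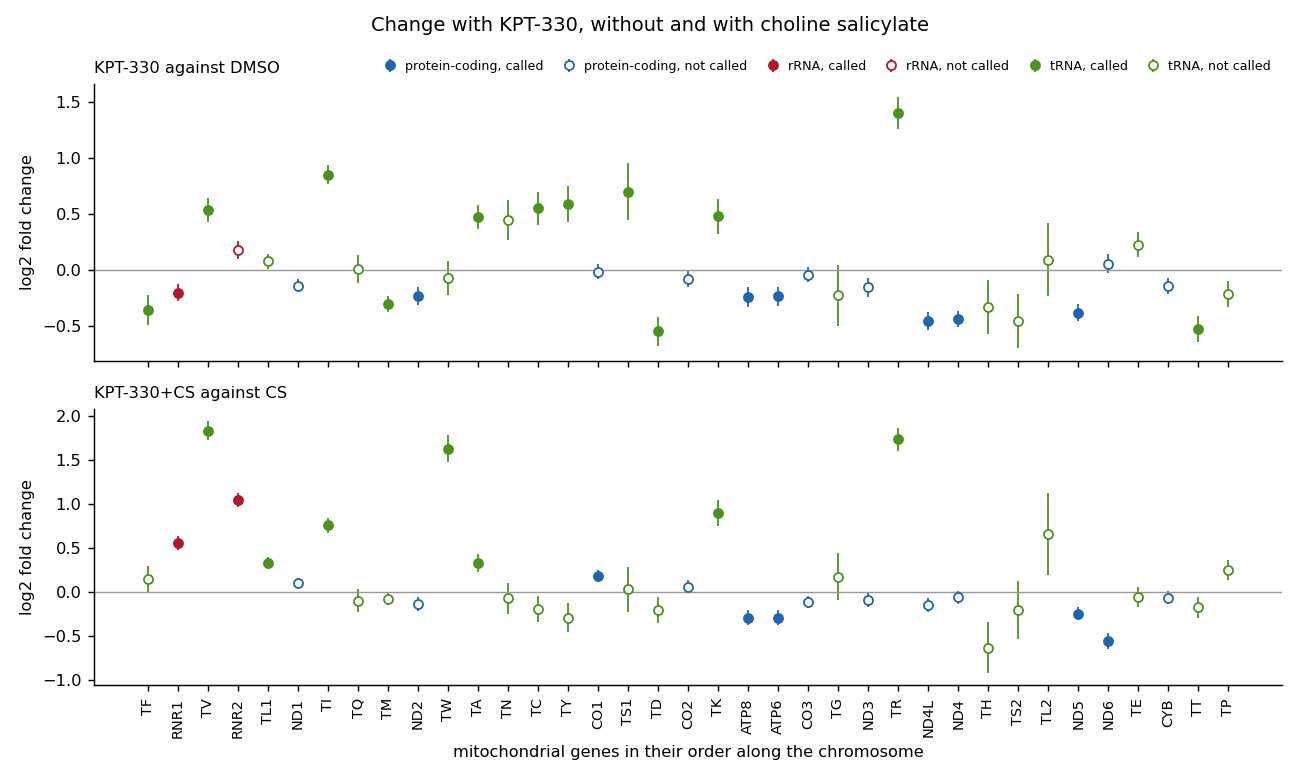
Log2 fold change (vertical axis) of each mitochondrial gene with KPT-330, in gene order: KPT-330 against DMSO above, KPT-330+CS against CS below. Points are edgeR estimates with SE bars, filled where the adjusted p is 0.05 or less; the rRNA genes are at -0.20 and 0.18 above and at 0.56 and 1.05 below.

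Cells given both drugs had raised rRNAs and the largest change of any mitochondrial gene in MT-TR. Of the 37 genes, 10 were higher and 11 lower in KPT-330+CS cells than in DMSO cells, beside 29.3% and 26.2% of all tested genes, so again the members' counts are close to the background. The higher genes were both rRNAs, 2 mRNAs and 6 tRNAs, and the lower ones 2 mRNAs and 9 tRNAs. The median log2 fold change was 0.11 over the 37 genes and 0.04 over all tested genes. Library size alone, where the median of all genes is 0.23, gave 18 higher and 7 lower. Of all 19460 tested genes, 7606 and 3363 were then called higher and lower. GC correction gave 14 higher and 15 lower, beside 6045 and 6577 of all 19460 tested genes. It added MT-ND3, MT-ND2, MT-CYB and MT-TP (0.11 to 0.19) and MT-CO3, MT-ATP6, MT-ATP8 and MT-ND4L (-0.18 to -0.09).

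MT-RNR2 had 22421, 23087 and 25237 CPM in KPT-330+CS cells, against 10309, 11606 and 12836 CPM in DMSO cells (1.03 ± 0.08, adjusted p = 1.94e-07). MT-RNR1 had 1001, 1017 and 1157 CPM in KPT-330+CS cells, against 724, 792 and 871 CPM in DMSO cells (0.41 ± 0.08, adjusted p = 0.000413). Both rRNAs were thus apart from DMSO, the large one further than the small one. Of the mRNAs, MT-CO2 and MT-CO1, both cytochrome oxidase subunits, rose by 0.45 ± 0.07 and 0.30 ± 0.07. MT-CO1 had 14558, 15187 and 15980 CPM in KPT-330+CS cells, against 11391, 12526 and 13138 CPM in DMSO cells. MT-ND6 fell: it had 397, 406 and 467 CPM in KPT-330+CS cells, against 465, 536 and 577 CPM in DMSO cells (-0.31 ± 0.09, adjusted p = 0.00798), and the highest KPT-330+CS library lay above the lowest DMSO library. Under library size alone it was at -0.13 (adjusted p = 0.168). MT-ND5 was at -0.25 ± 0.07, a call lost without DMSO 3 (-0.16, adjusted p = 0.069) and under library size alone (-0.06, adjusted p = 0.412).

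MT-TR had 20.7, 23.3 and 21.5 CPM in KPT-330+CS cells, against 1.44, 1.91 and 2.23 CPM in DMSO cells (3.56 ± 0.15, adjusted p = 6.32e-10). Relative to the sum of the changes with each drug alone (1.83 and 1.40), the interaction was 0.33 ± 0.20 (adjusted p = 0.281). MT-TI had 123, 128 and 132 CPM in KPT-330+CS cells, against 31.2, 34.1 and 39.1 CPM in DMSO cells (1.88 ± 0.09, adjusted p = 1.5e-09), with an interaction of -0.09 ± 0.12, which GC correction moved to -0.35 (adjusted p = 0.000274). MT-TK, MT-TV, MT-TW and MT-TA rose too, by 1.68 ± 0.15, 1.53 ± 0.11, 0.89 ± 0.15 and 0.47 ± 0.11. MT-TF and MT-TD fell: MT-TF had 3.02, 2.29 and 3.18 CPM in KPT-330+CS cells (-2.50 ± 0.14 against DMSO) and MT-TD 2.25, 2.13 and 2.19 CPM (-2.40 ± 0.14 against DMSO). Set against CS alone they were at 0.15 ± 0.15 (adjusted p = 0.431) and -0.20 ± 0.15 (adjusted p = 0.298), neither called; under GC correction MT-TD was called lower (-0.29, adjusted p = 0.0367). MT-TS2, MT-TH, MT-TL2, MT-TT and MT-TE fell by 1.96, 1.59, 1.30, 1.25 and 0.66 against DMSO. MT-TL1 was at -0.25 ± 0.07 and MT-TQ at -0.33 ± 0.13, both lost under library size alone (-0.06 and -0.14, adjusted p = 0.356 and 0.32); the MT-TQ groups overlapped, and its call was lost without any of 8 libraries (DMSO 2, DMSO 3, CS 2, any KPT-330 library, KPT-330+CS 1 or KPT-330+CS 2, adjusted p 0.0521 to 0.163). The counts of MT-TS2 were 9, 9 and 20 reads in KPT-330+CS libraries, against 52, 36 and 47 in DMSO libraries.

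**Figure D5:**
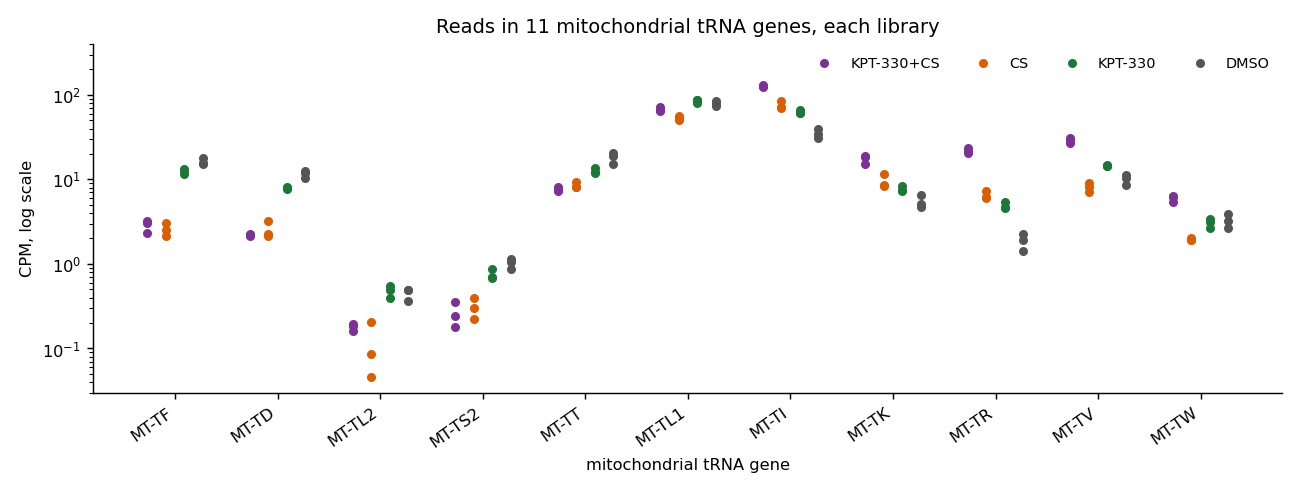
CPM (vertical axis, log scale) of 11 mitochondrial tRNA genes in each library, by group. MT-TF and MT-TD are low in both groups given CS (near 3 and 2 CPM), MT-TR and MT-TI rise with either drug and most with both, and MT-TV and MT-TW are highest with both drugs.

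Adding CS to KPT-330 moved most of the mitochondrial genome. Of the 37 genes, 17 were higher and 11 lower in KPT-330+CS cells than in KPT-330 cells, beside 19.7% and 17.9% of all tested genes. The higher genes were both rRNAs, 8 of 13 mRNAs and 7 tRNAs; the lower ones were MT-ND6 and 10 tRNAs. MT-CO2 led the mRNAs, with 10746, 10970 and 11993 CPM in KPT-330+CS cells, against 7930, 7823 and 7677 CPM in KPT-330 cells (0.52 ± 0.07, adjusted p = 0.000121), followed by MT-ND4 (0.42 ± 0.07) and MT-ND2 (0.40 ± 0.08). MT-TR rose by 2.16 ± 0.13, and MT-TF, MT-TD and MT-TS2 fell by 2.14 ± 0.14, 1.85 ± 0.14 and 1.51 ± 0.29. The calls of MT-ND3, MT-TP, MT-TQ and MT-TY were lost without single libraries, at adjusted p-values of up to 0.137; the libraries were KPT-330 3 and KPT-330+CS 3 for MT-ND3, any KPT-330 library or KPT-330+CS 3 for MT-TP, all but DMSO 1, DMSO 3 and CS 1 for MT-TQ, and CS 2, any KPT-330 library, KPT-330+CS 1 or KPT-330+CS 2 for MT-TY. Relative to mitochondrial mRNA, the rise of MT-ND1 (0.25 ± 0.06) turned to -0.01. GC correction added MT-TN, MT-TC and MT-CO3 to the lower genes (-0.59, -0.47 and -0.20).

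With KPT-330 added to CS, both rRNAs and a set of tRNA genes were called higher. Of the 37 genes, 10 were higher and 4 lower in KPT-330+CS cells than in CS cells, beside 26.1% and 21.7% of all tested genes, so the count of higher genes is close to the background and that of lower genes is below it. GC correction gave 11 higher and 10 lower, beside 5568 and 5992 of all 19460 tested genes. It added MT-TP (0.24) and, at -0.29 to -0.08, MT-TD, MT-ND2, MT-ND4L, MT-CO3, MT-ND3 and MT-ND4. MT-RNR2 had 22421, 23087 and 25237 CPM in KPT-330+CS cells, against 12085, 11420 and 10739 CPM in CS cells (1.05 ± 0.08, adjusted p = 2.57e-07), and MT-RNR1 rose by 0.56 ± 0.08. MT-TV, between them, had 29.3, 27.3 and 30.6 CPM in KPT-330+CS cells, against 9.13, 7.19 and 8.19 CPM in CS cells (1.83 ± 0.11, adjusted p = 2.18e-08). The whole stretch from MT-RNR1 through MT-TV to MT-RNR2 was therefore higher, with no overlap in any of the 3 genes, while MT-TF just before it did not pass.

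MT-TW, the tryptophan tRNA after MT-ND2, had 5.33, 6.43 and 6.25 CPM in KPT-330+CS cells, against 1.91, 2.00 and 1.91 CPM in CS cells (1.63 ± 0.15, adjusted p = 1.71e-06). MT-TR and MT-TK rose by 1.73 ± 0.13 and 0.89 ± 0.15, MT-TK having 15.2, 19.1 and 18.4 CPM in KPT-330+CS cells, against 11.5, 8.52 and 8.40 CPM in CS cells. MT-ND6 was the mRNA that fell furthest, with 397, 406 and 467 CPM in KPT-330+CS cells, against 684, 596 and 582 CPM in CS cells (-0.55 ± 0.09, adjusted p = 0.000177). The ATP synthase genes MT-ATP8 and MT-ATP6, which overlap, were each at -0.29. MT-ATP8 had 2810, 2958 and 3166 CPM in KPT-330+CS cells, against 3995, 3542 and 3369 CPM in CS cells, and MT-ATP6 had 4206, 4481 and 4702 CPM, against 5917, 5367 and 5046 CPM. Both lost their call under library size alone (adjusted p = 0.0597 for MT-ATP6 and 0.082 for MT-ATP8), as did MT-ND5 (-0.24 ± 0.07, adjusted p = 0.106 under library size alone), and MT-ATP8 and MT-ND5 also without CS 1 or KPT-330+CS 1 (up to 0.0696). The calls of MT-CO1 (0.18 ± 0.07) and MT-TA (0.33 ± 0.11) were lost without several libraries, at up to 0.143 and 0.0825: CS 2, CS 3 and KPT-330+CS 3 for both, and for MT-CO1 also DMSO 2, KPT-330+CS 2 and any KPT-330 library.

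The effect of one drug depended on the other at 8 of the 37 genes, by the interaction term of the same fit: 5 were higher with both drugs than the sum of the single effects and 3 lower, beside 8.04% and 6.62% of all tested genes. The count of lower genes is close to the background. MT-TW (1.70 ± 0.22, adjusted p = 0.000284) and MT-TV (1.29 ± 0.15, adjusted p = 0.000165) led the higher ones. MT-RNR2 (0.87 ± 0.11, adjusted p = 0.000345) and MT-RNR1 (0.76 ± 0.11, adjusted p = 0.000537) followed. Thus both rRNAs and the tRNA between them, none of which rose with CS alone, gained with CS in the presence of KPT-330 by 0.62, 0.99 and 0.84 (MT-RNR1, MT-TV and MT-RNR2). MT-ND6 had the opposite sign (-0.61 ± 0.12, adjusted p = 0.00614), as did the minus-strand tRNA genes MT-TY (-0.87 ± 0.23) and MT-TC (-0.74 ± 0.20). MT-ND4 was at 0.38 ± 0.10 (adjusted p = 0.0267). The calls of MT-ND4, MT-TC and MT-TY were lost without any of 9, 4 and 3 libraries (adjusted p up to 0.0811, 0.0814 and 0.0621), and in a fit with the replicate block (0.0605, 0.0623 and 0.0504). GC correction gave 7 higher and 9 lower, beside 2162 and 2959 of all 19460 tested genes. It added MT-ND1 and MT-ND4L (both 0.17) and, at -0.66 to -0.16, MT-TN, MT-TE, MT-TI, MT-ATP8, MT-ATP6 and MT-CO3. For MT-TF the interaction was 0.51 ± 0.20 and did not pass (adjusted p = 0.106).

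By annotated strand, which the reads do not resolve, the tRNA genes called with CS were mostly those of the plus strand, the larger class. With CS alone 3 of 14 plus-strand tRNA genes were higher and 8 lower, and of the 8 minus-strand ones 0 were higher and 1 (MT-TE, glutamate) lower. With KPT-330 alone 4 of 14 were higher and 4 lower on the plus strand, and 4 of 8 higher and 0 lower on the minus strand. In KPT-330+CS cells against DMSO cells these counts were 5 and 7 of 14, and 1 and 2 of 8. Of all tested genes, 3.76% and 5.13% were called higher and lower with CS, 24.7% and 23.8% with KPT-330, and 29.3% and 26.2% with both drugs. The plus-strand counts with KPT-330 are close to these shares. The difference between strands was not tested.

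Nuclear genes that make and keep mitochondrial RNA were read in 6 lists chosen by function. Their values are from the fit without GC correction, and how far their calls depend on it is not given here. The shares of all tested genes called higher and lower against DMSO were 3.76% and 5.13% with CS, 24.7% and 23.8% with KPT-330, and 29.3% and 26.2% with both drugs. In the list for RNA stability and decay, 7 of 14 genes fell with CS, 9 with KPT-330 and 10 with both drugs, each against DMSO, while 0, 1 and 1 rose; the list's median log2 fold change was -0.22, -0.39 and -0.39. The RNA chaperone LRPPRC averaged 428, 533 and 571 CPM in KPT-330+CS, CS and KPT-330 cells, against 685 CPM in DMSO cells, and fell by 0.68 ± 0.08, 0.36 ± 0.08 and 0.26 ± 0.08. Its partner SLIRP fell by 0.81 ± 0.07, 0.30 ± 0.07 and 0.50 ± 0.07. PNPT1, the exonuclease of the mitochondrial degradosome, averaged 88.5, 144 and 110 CPM in KPT-330+CS, CS and KPT-330 cells, against 186 CPM in DMSO cells, falls of 1.07 ± 0.07, 0.36 ± 0.07 and 0.76 ± 0.07 (adjusted p = 2.57e-08, 0.00525 and 1.4e-06). The RNA-binding protein gene GRSF1 fell by 0.51 ± 0.08, 0.41 ± 0.08 and 0.40 ± 0.07 in the same order.

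Of 8 transcription genes, 0 rose and 1 fell with CS (TFB2M, which opens the promoter, by 0.27 ± 0.06), 1 rose and 4 fell with KPT-330, and 1 rose and 3 fell with both drugs. POLRMT, the mitochondrial RNA polymerase, averaged 11.7 ± 3.88 CPM in KPT-330+CS cells, 16.2 ± 5.72 in CS cells, 19.6 ± 0.390 in KPT-330 cells and 15.2 ± 6.95 in DMSO cells (SD, n = 3 each), too spread for a call in any of these comparisons (against DMSO -0.39 ± 0.32, 0.09 ± 0.31 and 0.37 ± 0.31). Within the KPT-330+CS, CS and DMSO groups, POLRMT CPM was higher in libraries with a higher GC slope (22.8, 13.5 and 9.26 CPM in DMSO libraries). The part of GC content in this spread was not tested. TFAM, which packages mitochondrial DNA and starts transcription, was at -0.38 ± 0.06 with both drugs (adjusted p = 0.000193), -0.19 ± 0.06 with CS (adjusted p = 0.0826) and -0.35 ± 0.06 with KPT-330 (adjusted p = 0.000587). MTERF2, a member of the mitochondrial termination factor family, rose with both drugs to 18.1 ± 1.14 CPM and with KPT-330 to 13.6 ± 0.610 CPM, against 8.90 ± 0.750 CPM in DMSO cells (SD, n = 3 each), and averaged 9.01 CPM in CS cells. Its log2 fold changes were 1.03 ± 0.09 with both drugs and 0.61 ± 0.09 with KPT-330 (adjusted p = 4.35e-07 and 8.69e-05), and 0.02 ± 0.09 with CS (adjusted p = 0.939).

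End processing and tRNA maturation, the list nearest to the tRNA genes above, had 0 of 12 genes called with CS in either direction. With KPT-330 1 rose and 3 fell, the lower count being close to the share of all tested genes. With both drugs 2 rose and 6 fell. TRMT10C, a subunit of the nuclease that cuts tRNA 5′ ends, was at -0.18 ± 0.05 with both drugs (adjusted p = 0.0134), -0.17 ± 0.05 with CS (adjusted p = 0.0677) and -0.45 ± 0.05 with KPT-330. TRNT1, which adds the CCA end, fell by 0.59 ± 0.08 with both drugs and by 0.47 ± 0.08 with KPT-330, and was at -0.11 ± 0.08 with CS (adjusted p = 0.426). In the list for rRNA modification and assembly 0 of 9 genes were called with CS. There 2 rose and 2 fell with KPT-330, close to the shares of all tested genes, and 1 rose and 3 fell with both drugs. TFB1M, which methylates the small rRNA, fell by 0.76 ± 0.08 with both drugs and by 0.61 ± 0.08 with KPT-330.

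Of 11 genes for replication and upkeep of mitochondrial DNA, 0 rose and 3 fell with CS, and 2 rose and 5 fell both with KPT-330 and with both drugs. The thymidine kinase gene TK2 rose to 3.92 ± 0.257 CPM with both drugs and to 2.82 ± 0.291 CPM with KPT-330, against 1.27 ± 0.268 CPM in DMSO cells (SD, n = 3 each), and RNASEH1, which removes RNA primers, fell by 0.95 ± 0.06, 0.20 ± 0.06 and 0.48 ± 0.06 with both drugs, CS and KPT-330. Among 8 nuclear regulators of mitochondrial genes, 0 were called with CS, 1 fell with KPT-330, and 1 rose and 6 fell with both drugs. PPARGC1B, a coactivator of mitochondrial biogenesis, fell by 1.35 ± 0.07 with both drugs and 0.72 ± 0.06 with KPT-330. PPARGC1A, its relative, was near the floor of detection, at 0.422, 0.533 and 0.919 CPM with both drugs, against 0.185, 0.0978 and 0.0485 CPM in DMSO cells, and was called higher (2.45 ± 0.44, adjusted p = 0.000332).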

How the data were processed

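Per the labels' protocols, poly(A) libraries were unstranded and the RNA kit was one made for FFPE material. STAR, run within MAP-RSeq in a modified form, placed the reads on hg38, per the series design text, and the authors deposited raw counts per gene of Ensembl version 78. Not given in the sources used here are the counting program, its strand setting, its rule for reads shared by overlapping genes or nuclear copies, and tool versions.

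The 37 genes, lists and tests were chosen with earlier results of these data known. The test was that of edgeR 4.0.16 (R 4.3.3) over all 12 libraries (filterByExpr, TMM, robust quasi-likelihood F-test, two-sided, group as the only term, 8 residual degrees of freedom), with Benjamini-Hochberg adjustment over 19460 genes per comparison. CPM used TMM-scaled library sizes, whereas shares used raw counts. Shares and ratios were tested by exact permutation of one drug within the strata of the other (400 arrangements, smallest p = 0.005), adjusted over 16 tests; comparing 3 libraries with 3 alone cannot go below p = 0.1. The steps were tested on simulated data. Values per library are given for the rRNAs, MT-ND6, and the up to 3 mRNAs and 4 tRNAs with the largest called change per comparison (nuclear lists: up to 3 per list, with POLRMT, TFAM and LRPPRC), plus some members they are set against.

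Alternatives were no or a stricter filter, DESeq2 1.42.0 or its size factors, library size alone, nuclear library sizes, library sizes set to mitochondrial mRNA, a replicate block, the compared groups alone, a GC correction (lowess, span 0.3) and each library left out. A run without DMSO 3, CS 1 and KPT-330+CS 3, which have the lowest GC slopes of their groups, was added after seeing the data. GC content was known for 97.0% of tested genes. Coordinates of the 37 genes were the same in the GENCODE 44 annotation, and sequences were read from the hg38 reference. Plots used matplotlib 3.10.9 (Python 3.11.15).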

Additional observations from a re-analysis of the deposited data

Results flagged for a closer look

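The change with CS differed between cells with and without KPT-330 at 8 of the 37 genes, by the interaction term of the edgeR quasi-likelihood fit. Of all tested genes, 14.7% were called by this term. The differences of log2 fold changes (with KPT-330 minus without) were 1.70 for MT-TW, 1.29 for MT-TV, 0.87 for MT-RNR2, 0.76 for MT-RNR1, 0.38 for MT-ND4, -0.61 for MT-ND6, -0.74 for MT-TC and -0.87 for MT-TY. MT-TW changed by 0.96 with CS beside KPT-330 and by -0.74 without it, and MT-ND6 by -0.37 and 0.24. In both genes the 2 estimates had opposite signs. MT-ND4 changed by 0.42 beside KPT-330 and by 0.04 without it. The calls of MT-TW, MT-TV, both rRNAs and MT-ND6 held without any one library. That of MT-ND4 was lost without any of 9 libraries, all but DMSO 1, CS 1 and KPT-330+CS 1 (adjusted p up to 0.0811). MT-TC lost its call without CS 1, CS 2, KPT-330 1 or KPT-330+CS 2 (up to 0.0814), and MT-TY without CS 2, KPT-330 1 or KPT-330+CS 2 (up to 0.0621).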

How the results depend on the processing

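Of the called genes, 7 of 14 (CS against DMSO), 11 of 19 (KPT-330 against DMSO), 17 of 21 (KPT-330+CS against DMSO), 24 of 28 (KPT-330+CS against KPT-330), 9 of 14 (KPT-330+CS against CS), 19 of 22 (CS against KPT-330) and 5 of 8 (interaction) held in every alternative run other than scaling to mitochondrial mRNA; the stricter filter left MT-TG, MT-TL2 and MT-TS2 untested, so these were not tried there, DESeq2 gave no adjusted p for MT-TL2 with CS against DMSO, and the interaction was not run on the compared groups alone. Counts that moved by more than 1.5 times are given next. Library size alone gave 10 higher genes for CS against DMSO, 14 higher and 5 lower for KPT-330 against DMSO, and 18 and 7 for KPT-330+CS against DMSO. For KPT-330+CS against CS it gave 1 lower, beside 3029 of all 19460 tested genes. Relative to mitochondrial mRNA there were 8 higher and 18 lower for CS against DMSO and 16 higher for KPT-330 against DMSO. There were 19 lower for KPT-330+CS against KPT-330 and 7 lower for KPT-330+CS against CS. For CS against KPT-330 and the interaction, 22 and 8 were lower. Of all 19460 tested genes, this scaling called 475 higher and 3984 lower for CS against DMSO and 5895 higher for KPT-330 against DMSO. In the order of the other comparisons given, 6838, 3755, 8456 and 1799 were lower. For CS against DMSO, the median SE of the mRNAs was 0.018 in this fit and 0.0731 in the main fit. The GC correction gave 14 higher for CS against DMSO, 13 higher for KPT-330 against DMSO, 10 lower for KPT-330+CS against CS and 9 lower for the interaction. The compared groups alone gave 2 higher and 5 lower for CS against DMSO. Leaving out the lowest GC slopes gave 8 higher there, beside 756 of all 19817 genes tested in that run. Correlations between libraries of different groups were -0.384 to 0.401 over 18 same-numbered pairs and -0.419 to 0.404 over 36 other pairs. These show no pairing by replicate number but cannot exclude one, because the GC trend was not removed from them. The replicate block left 1 lower gene in the interaction. Leaving out 1 library gave 4 to 9 higher for CS against DMSO, 6 to 15 lower for KPT-330 against DMSO, 2 to 4 lower for KPT-330+CS against CS, and 4 to 12 higher and 1 to 3 lower for the interaction. The difference in rRNA share with CS passed with nuclear counts as the denominator (0.689, adjusted exact permutation p = 0.0343) and without the lowest GC slopes (0.573, adjusted p = 0.0485); with 1 library left out it was 0.565 to 0.624 and passed without DMSO 3 (adjusted p = 0.0291) or CS 3 (0.04), that of the tRNA share with CS 0.00971 to 0.0118, and that of the mitochondrial share with KPT-330 0.923 to 1.17.

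Relative to mitochondrial mRNA, signs turned at 15 values called in at least one of both fits and at 11 called in neither, which are not listed. The 15 were for CS against DMSO at MT-ND1 (-0.12), MT-ND4L (-0.079) and MT-ND4 (-0.084), for KPT-330 against DMSO at MT-CO1 (0.15), MT-CO2 (0.090) and MT-CO3 (0.13), and for KPT-330+CS against KPT-330 at MT-ND1 (-0.0087), MT-ATP8 (-0.17), MT-ATP6 (-0.17) and MT-ND5 (-0.12). For CS against KPT-330 they turned at MT-RNR1 (-0.24), MT-ND1 (-0.15), MT-TI (-0.029), MT-CO1 (-0.16) and MT-ND6 (-0.12). Under library size alone MT-CO1 was at 0.15 (KPT-330 against DMSO) and MT-ND4 at 0.17 (KPT-330+CS against DMSO). Relative to mitochondrial mRNA, the median log2 fold change of all tested genes moved as well. It went from -0.01 to -0.14 for CS against DMSO and from 0.04 to 0.20 for KPT-330 against DMSO. For KPT-330+CS against KPT-330 it went from -0.001 to -0.26, and for CS against KPT-330 from -0.04 to -0.33. The turned signs thus go with a shift that the scaling gives to all genes. Any further cause was not tested. Low read numbers limit the precision of MT-TL2, MT-TS2 and MT-TH.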

Other observations

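Along the heavy-strand transcript, the 12 plus-strand mRNAs can be read in gene order. Pearson's r between log2 fold change and order was -0.44 for KPT-330+CS, -0.26 for CS and -0.49 for KPT-330, each against DMSO; these are across genes that share libraries and a transcript, and are given as a description. Of these mRNAs MT-CO2 had the highest estimate against DMSO with both drugs (0.45) and with CS (0.38), while MT-CO3, the third mRNA gene after it, had the lowest with CS (-0.04).

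Pseudogene copies of mitochondrial genes in the nuclear genome made up 196 rows of the table, of which 57 had counts. Their summed counts were 0.434% to 0.551% of those on the mitochondrial chromosome. They came to 386, 392 and 418 CPM in KPT-330+CS cells, 469, 428 and 418 CPM in CS cells, 337, 334 and 323 CPM in KPT-330 cells, and 336, 363 and 382 CPM in DMSO cells. How reads shared between such copies and the mitochondrial genome were counted is not given in the sources used here.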
